A study of Mus musculus with 67 samples.

Results

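The proteins of the cytosolic ribosome were followed through T cells sorted from the mouse hypothalamus and from the brain without it (rest brain). Their genes were chosen by name: each symbol that begins with Rpl or Rps before a digit, with Rplp0, Rplp1, Rplp2 and Rpsa, and without Rps6k kinases, pseudogenes and copies with a like suffix. This gave 80 of 24546 measured features, 47 of the large subunit and 33 of the small subunit. Of these, 79 entered each comparison, because Rps27rt had 0 counts in all libraries.

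Large-subunit proteins surround the site where peptide bonds form, and small-subunit proteins hold the mRNA while it is read. Rplp0, Rplp1 and Rplp2 form the P-stalk, which brings elongation factors to the ribosome. Most of these mRNAs begin with a tract of pyrimidines through which mTOR controls their translation, so that mRNA amount and protein synthesis in a T cell need not move together.

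The second experiment held 59 libraries in 16 groups of 2 to 4, 29 of activated conventional T cells and 30 of regulatory T cells (Tregs). By the study's methods, the activated T cells were CD4 positive, CD25 negative, Foxp3GFP negative, high in CD44 and low in CD62L. The library labels of this experiment do not name a Foxp3 GFP reporter. The groups crossed rest brain or hypothalamus with Balb/c or C57Bl/6J mice (BalbC and BL6 in the labels) and a high-fat, high-sugar diet (HFD) or standard diet (SD). Libraries were pools, of 5 mice for activated T cells by the study's methods, which give no number for Tregs, and mice were 6 weeks old when diets began. Balb/c mice were female and C57Bl/6J mice male, so strain and sex cannot be told apart. The pilot experiment held 8 hypothalamic libraries from females, 1 for each condition: CD4+ T cells and CD25high Tregs of genetically obese ob/ob and of BL6 mice (pools of 7), and naive CD4+ CD44- T cells and Foxp3GFP+ Tregs of Foxp3 GFP BalbC mice after 16 weeks of HFHSD or regular diet (pools of 9).

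Total counts per library had a lowest, median and highest value of 11.3, 19.1 and 28.2 M (M, 1000000 counts) in rest-brain activated T cells and of 13.2, 18.1 and 20.5 M in hypothalamic ones. In Tregs they were 8.94, 17.4 and 25 M in the rest brain and 1.72, 15 and 38.5 M in the hypothalamus. Counting error left each library's share of ribosomal protein counts known to within 0.0360 percentage points (95% exact interval, counting error only).

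Activated T-cell libraries carried their T-cell markers at 7823 to 10000 CPM (counts scaled to a library total of 1000000, summed over markers) in C57Bl/6J and 7896 to 9098 in Balb/c rest brain. Some other libraries went against their labels. Library hypo_BL6_SD_Tregs_11_15 held 7 T-cell markers at only 183 CPM and 6 Treg markers at 84.3 CPM, with Il2ra at or under the floor of 3 counts, beside 7 endothelial markers at 17197 CPM led by Ly6c1 at 8850. Library hypo_BalbC_SD_Tregs_32_36 held 8 microglial markers at 28016 CPM beside 7 T-cell markers at 5857 CPM and 6 Treg markers at 4001 CPM. Of the Treg markers, Foxp3, Il2ra and Tnfrsf18 were at or under the floor and Ikzf2 was highest at 1640 CPM, so that microglial and T-cell markers stood side by side in this library. The pilot library of BL6 CD25high Tregs held 8 microglial markers at 36888 CPM led by P2ry12 at 18729, and Cd3d, Cd4, Lck, Cd2 and Cd28 were at or under the floor. The pilot library of ob/ob CD25high Tregs fitted its label in part. It had only 99925 counts, with Il2ra, the gene of CD25, at or under the floor and 8 astrocyte markers at 2472 CPM led by Gja1 at 1171. It also held 7 T-cell markers at 8707 CPM and 6 Treg markers at 2302 CPM led by Ikzf2 at 861. Results that rest on the 2 Treg libraries of the second experiment are given with and without them.

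Ribosomal protein genes took the largest share of counts in activated T cells of the Balb/c rest brain. There the lowest, median and highest share was 7.08, 8.71 and 10.1%, a mean of 8.59% ± 1.15 (SD, n = 6). In C57Bl/6J rest brain the same cells had 4.38, 5.24 and 6.06%, a mean of 5.24% ± 0.626 (SD, n = 7). The strains did not overlap there, and in the hypothalamus they did. Hypothalamic activated T cells had 3.22, 5.60 and 6.79% in C57Bl/6J (mean 5.45% ± 1.08, SD, n = 8) and 4.25, 5.37 and 6.41% in Balb/c (mean 5.29% ± 0.767, SD, n = 8). As the mean of log2(CPM + 1) over the members, rest-brain activated T cells had 8.80 ± 0.17 (SD, n = 7) in C57Bl/6J and 9.51 ± 0.19 (SD, n = 6) in Balb/c. In bulk samples, a change in which cells were sorted and a change in RNA per cell cannot be told apart.

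Tregs had overlapping shares in all 4 combinations of tissue and strain. Rest-brain Tregs had 3.91, 4.65 and 7.88% in C57Bl/6J (mean 5.10% ± 1.37, SD, n = 8) and 3.69, 3.79 and 5.51% in Balb/c (mean 4.14% ± 0.710, SD, n = 6). Hypothalamic Tregs had 2.86, 5.71 and 8.90% in C57Bl/6J (mean 5.66% ± 1.72, SD, n = 8) and 3.06, 4.61 and 8.25% in Balb/c (mean 4.92% ± 1.48, SD, n = 8). The C57Bl/6J mean was 6.07% without replicate 11_15 and the Balb/c mean 5.0% without replicate 32_36, the libraries named above. By tissue, cell type and strain, the SD of the share was largest in hypothalamic Tregs.

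**Figure D1:**
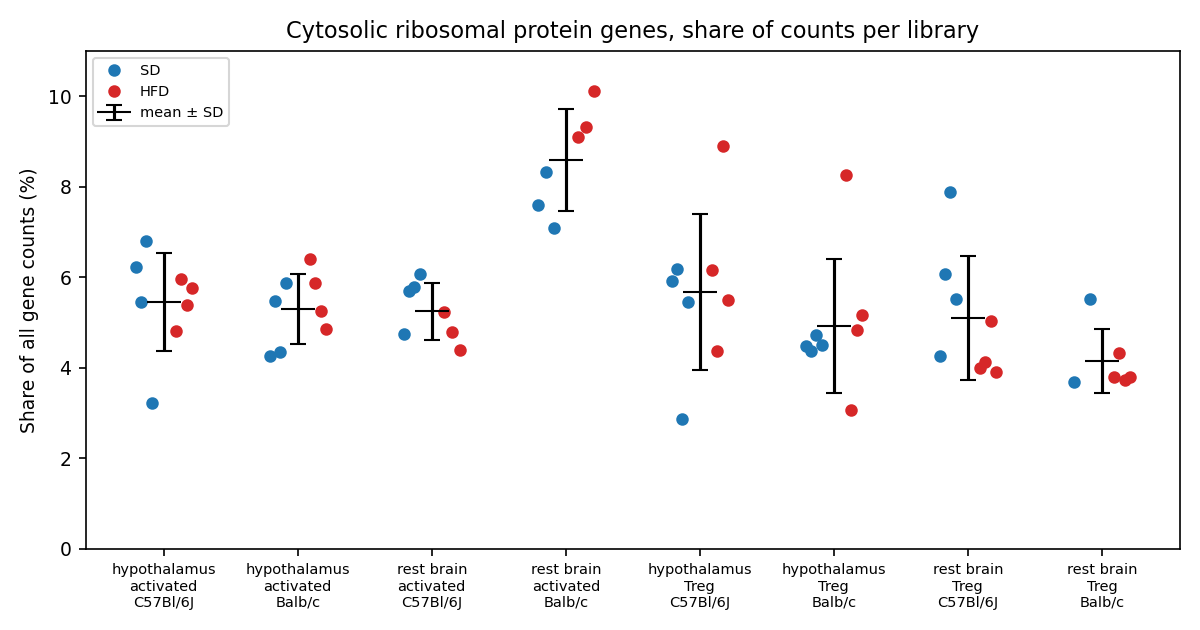
Share of all gene counts taken by ribosomal protein genes (percent) in each library of the second experiment, by tissue, cell type and strain. Points are libraries, colored by diet, with the mean and SD in black. Balb/c rest-brain activated T cells sit between 7.08 and 10.1%, above all 7 C57Bl/6J ones.

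The members differed widely in level among themselves. Compared per length, Rps27, a zinc-binding small-subunit protein, had the highest mean level at 11423 TPM (transcripts scaled to 1000000), followed by Rpl32 at 5944 and Rps23 at 4310. Of the 79 with counts, the lowest were Rps23rg1 at 5.99, Rpl37rt at 75.4 and Rpl30 at 82.6 TPM. Rps23rg1 and Rpl37rt are retrocopies, and values of members with near-identical copies are less certain, because reads were shared out among the copies by estimate.

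The comparison of strains asked where genetic background or sex goes with a different ribosomal protein program. In rest-brain activated T cells, 71 of the 79 members were higher in Balb/c and 2 lower (edgeR quasi-likelihood test, Benjamini-Hochberg adjusted p < 0.05), where 12.1% of all genes were higher and 11.3% lower. The members' median log2 fold change was 1.06, and that of all 12289 genes −0.03. With library totals as the only scaling, 68 members were higher and 3 lower, the median of all genes moved to −0.30, and the split of all calls moved from 1493 higher and 1394 lower to 1003 higher and 2067 lower. The direction of the members' difference thus did not hang on the scaling, while that of the transcriptome around them did.

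Of the 47 large-subunit members, 42 were higher and 2 lower. Rpl36a, a large-subunit protein, had a lowest, median and highest level of 178, 212 and 255 CPM in C57Bl/6J and 374, 464 and 527 CPM in Balb/c, with no overlap. Its log2 fold change was 1.38 ± 0.17 (SE; adjusted p = 2.45e-05, edgeR quasi-likelihood test, Benjamini-Hochberg). Rpl39, which lines the tunnel through which the new peptide leaves, had 226, 297 and 375 CPM against 483, 639 and 848 CPM. That difference, again without overlap, was 1.37 ± 0.21 (SE; adjusted p = 0.000138, edgeR quasi-likelihood test, Benjamini-Hochberg). Rpl22, a protein that developing αβ T cells need, had 177, 214 and 249 CPM against 346, 432 and 577 CPM. It differed by 1.32 ± 0.19 (SE; adjusted p = 8.65e-05, edgeR quasi-likelihood test, Benjamini-Hochberg).

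The 2 large-subunit members that ran the other way were Rpl29 and Rpl3. Rpl29, a protein of the subunit's surface, had 233, 274 and 316 CPM in C57Bl/6J and 82.3, 111 and 131 CPM in Balb/c. It was lower in every Balb/c library, by −1.12 ± 0.18 log2 units (SE; adjusted p = 0.000168, edgeR quasi-likelihood test, Benjamini-Hochberg). Rpl3, which reaches toward the peptide-bond site, had 825, 879 and 1030 CPM against 371, 584 and 637 CPM. Its levels did not overlap either, and its log2 fold change was −0.44 ± 0.12 (SE; adjusted p = 0.00953, edgeR quasi-likelihood test, Benjamini-Hochberg).

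Of the 32 small-subunit members tested, 29 were higher in Balb/c and 0 lower. Rps28, which sits near the exit of the mRNA channel, had 117, 158 and 185 CPM in C57Bl/6J and 269, 382 and 448 CPM in Balb/c. This was the largest difference of any member, 1.55 ± 0.20 (SE; adjusted p = 3.99e-05, edgeR quasi-likelihood test, Benjamini-Hochberg). Rps29, a small zinc-binding protein of the subunit's head, had 464, 630 and 744 CPM against 1068, 1429 and 1989 CPM. It rose by 1.48 ± 0.20 (SE; adjusted p = 5.99e-05, edgeR quasi-likelihood test, Benjamini-Hochberg). Rps27 had 1084, 1589 and 2010 CPM against 2562, 3563 and 4205 CPM, a difference of 1.42 ± 0.20 (SE; adjusted p = 8.47e-05, edgeR quasi-likelihood test, Benjamini-Hochberg). All of these sets of libraries were apart from each other. Rps3, which lies where mRNA enters and also acts in DNA repair, was nearer to the median gene. Its levels of 922, 1030 and 1262 CPM overlapped those of 1016, 1203 and 1365 CPM, and its log2 fold change was 0.46 ± 0.14 (SE; adjusted p = 0.0219, edgeR quasi-likelihood test, Benjamini-Hochberg).

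The P-stalk was split. Rplp1 had 387, 473 and 602 CPM in C57Bl/6J and 801, 984 and 1132 CPM in Balb/c, with a log2 fold change of 1.28 ± 0.17 (SE; adjusted p = 5.99e-05, edgeR quasi-likelihood test, Benjamini-Hochberg). Rplp2, its partner in the stalk's dimers, had 321, 439 and 491 CPM against 573, 793 and 894 CPM, and differed by 1.14 ± 0.18 (SE; adjusted p = 0.000217, edgeR quasi-likelihood test, Benjamini-Hochberg). Rplp0, the base that anchors these dimers, had 1074, 1224 and 1455 CPM against 688, 1010 and 1104 CPM. Its fitted log2 fold change was −0.04 ± 0.12 (SE; adjusted p = 0.845, edgeR quasi-likelihood test, Benjamini-Hochberg) and was 0.00 with DESeq2. With library totals only, Rplp0 had −0.31 and passed the threshold as lower. The mRNAs of the dimer proteins were thus higher in Balb/c, while that of the base was not past the threshold or lower, by the scaling used. The CPM scale and the fitted scale differ because the fit rescales the libraries. The transcripts of Rplp1 and Rplp2 have 468 and 441 bases and that of Rplp0 has 1360. Genes other than members had a median log2 fold change of 1.13 under 600 bases and 0.05 from 1000 to 2000 bases. The split of the stalk thus ran alongside transcript length, whose part was not tested.

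Transcript length went with this difference among members and, up to 4000 bases, among other genes. Genes other than members had a median log2 fold change of 1.13 under 600 bases (n = 243, 53.1% higher), 0.81 from 600 to 1000 bases (n = 741, 45.6% higher) and 0.05 from 1000 to 2000 bases (n = 2852, 16.2% higher). The members in the same classes had medians of 1.17 (n = 31), 1.03 (n = 30) and 0.87 (n = 15). From 2000 to 4000 bases the median of other genes was −0.40 (n = 4920, 5.79% higher and 17.4% lower). From 4000 bases on it was back at 0.07 (n = 3454, 6.02% higher and 6.83% lower). In the shortest class the members were thus close to other genes, and from 1000 to 2000 bases they stood apart from them. Rps28, Rps29, Rps27, Rpl39 and Rpl36a, named above for their differences, are all in the shortest class, and Rpl22, at 2203 bases, is not. Across the 79 members, which come from the same libraries and are not independent replicates, fold change and length had a Spearman rho of −0.543, against −0.0666 over all 12289 genes. The mean fragment length behind the deposited effective lengths was 220 to 233 bases in C57Bl/6J and 210 to 223 bases in Balb/c. What part length and fragment length have in the result was not tested.

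**Figure D2:**
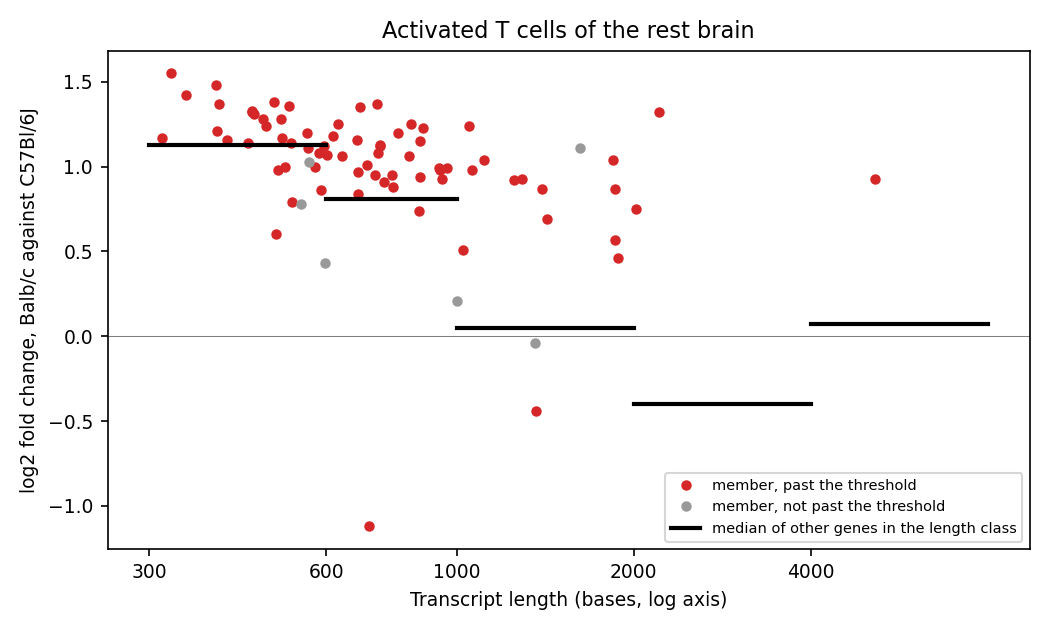
Log2 fold change of each tested member (points) between Balb/c and C57Bl/6J activated T cells of the rest brain, against its mean transcript length in bases on a log axis. Black lines are medians of all other genes in a length class, such as 1.13 under 600 bases and 0.05 from 1000 to 2000 bases; the outer classes are open-ended.

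Other genes of translation were compared as lists chosen by function. Of 78 mitochondrial ribosomal protein genes, 47 were higher in Balb/c and 1 lower, with a median of 0.77. Of 16 translation genes with pyrimidine tracts, such as Eef1a1 and Eef2 for elongation, 9 were higher and 1 lower, with a median of 0.49. Of 20 genes of ribosome assembly, 1 was higher and 4 lower, with a median of −0.42. Of 14 genes of mTOR and Myc control tested, 1 was higher and 0 lower, with a median of −0.02. Of all genes, 12.1% were higher and 11.3% lower, so the first 2 lists held larger shares of higher genes, while the last 2 held too few calls to compare.

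Lists of markers for other cells also differed between these strains, though the sum of a list does not by itself show that those cells were present. The 8 macrophage and monocyte markers summed to 930, 1151 and 1583 CPM (lowest, median, highest) in C57Bl/6J, led by Ly6c2, and to 420, 540 and 636 CPM in Balb/c, led by Ccr2 or Ly6c2. Mrc1, a defining marker of this list, was at or under the floor in every one of these rest-brain libraries. This list was apart in hypothalamic activated T cells as well, at 783 to 1238 against 283 to 667 CPM, where ribosomal protein shares overlapped. The 2 CD8 genes summed to 1.94, 39.8 and 736 CPM against 276, 348 and 479 CPM, and the 7 endothelial markers to 72.4, 95.7 and 147 against 119, 196 and 259 CPM. The 8 neuronal markers, led by Meg3, summed to 0.603, 3.48 and 35.8 CPM against 8.28, 52.6 and 642 CPM, and the 8 microglial markers to 68.9, 91.8 and 114 against 85.4, 108 and 781 CPM, with both highest values in brain_BalbC_SD_act_42_46. In its flow cytometry of T cells, the study gated out cells bearing B220, F4/80, CD14, CD11c, CD11b or CD8a. The part of other cells in the ribosomal protein difference was not tested.

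In the other cells, the strains differed in few members. Hypothalamic activated T cells had 0 members higher and 2 lower in Balb/c, where 0.993% of all genes were higher and 1.10% lower, and the members' median was −0.04 beside 0.01. Rest-brain Tregs also had 0 higher and 2 lower, where 0.145% of all genes were higher and 0.154% lower, with medians of −0.26 and 0.08. DESeq2 gave 4 lower in each, where it called 296 of 10877 and 132 of 11711 genes lower. Without hypo_BL6_SD_act replicate 11_15, hypothalamic activated T cells had 6 past the threshold, and calls over all genes in that fit are not given here. In hypothalamic Tregs, DESeq2 called 0 members, where it called 62 of all 7715 genes higher and 188 lower. In edgeR these Tregs also had 0 members past the threshold, where 0.0130% of all genes were higher and 0.0259% lower. At unadjusted p < 0.05 in edgeR there were 2 members, of 292 among all 7715 genes. The members' median was −0.40 beside −0.28 over all genes, and −0.30 beside 0.06 without the 2 libraries that go against their labels. With DESeq2 size factors in edgeR, the all-gene median moved to −0.16 and the all-gene calls from 1 higher and 2 lower to 1 and 1.

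The members called were Rpl29 and Rps14 in both cell types. Rpl29 had 160, 301 and 394 CPM in C57Bl/6J and 51.0, 74.4 and 102 CPM in Balb/c hypothalamic activated T cells. Its log2 fold change there was −2.0 ± 0.18 (SE; adjusted p = 5.70e-07, edgeR quasi-likelihood test, Benjamini-Hochberg). In rest-brain Tregs it had 176, 215 and 359 CPM against 38.6, 59.2 and 66.5 CPM, and −2.11 ± 0.31 (SE; adjusted p = 0.00291, edgeR quasi-likelihood test, Benjamini-Hochberg). Rpl29 was thus lower in Balb/c in all 3 settings named, with no overlap of libraries. In hypothalamic Tregs its libraries overlapped, at 81.1, 211 and 357 CPM against 52.6, 86.0 and 193 CPM. Its log2 fold change of −1.35 ± 1.12 (SE) was not past the threshold there. Rps14, a protein of the small subunit's platform, had 625, 1199 and 1431 CPM against 508, 700 and 862 CPM in hypothalamic activated T cells, and −0.77 ± 0.16 (SE; adjusted p = 0.00985, edgeR quasi-likelihood test, Benjamini-Hochberg). In rest-brain Tregs its levels were 833, 1001 and 1996 CPM against 431, 459 and 582 CPM, and its log2 fold change −1.16 ± 0.18 (SE; adjusted p = 0.00548, edgeR quasi-likelihood test, Benjamini-Hochberg). In hypothalamic Tregs Rps14 had −1.13 ± 0.44 (SE), not past the threshold. In rest-brain activated T cells it ran the other way, at 0.43 ± 0.19 (SE), also not past the threshold. Its levels there overlapped, at 888, 1235 and 1371 CPM in C57Bl/6J against 957, 1357 and 1611 CPM in Balb/c.

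**Figure D3:**
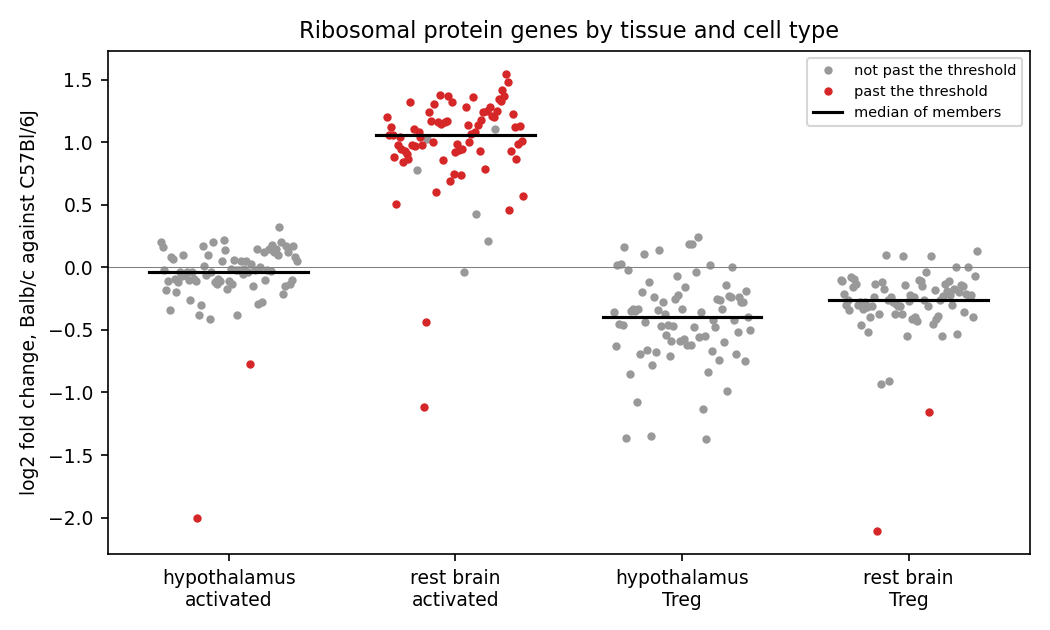
Log2 fold change of each of the 79 tested members (points) between Balb/c and C57Bl/6J mice, by tissue and cell type, with the median of members as a line and members past the threshold in red. Rest-brain activated T cells have a median of 1.06, and the other 3 have medians of −0.04, −0.40 and −0.26 with few or no red points.

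Tregs were next compared with activated T cells. In the rest brain, 1 member was higher in Tregs and 50 were lower, where 3.70% of all genes were higher and 12% lower, and the members' median was −0.63 beside −0.35 (−0.51 beside −0.24 by library totals). The lower ones were 27 large-subunit and 23 small-subunit members. With pools as a block, 1 member was higher and 20 lower (215 and 1552 of all 13961 genes), though labels do not say that a pool number marks the same mice. Libraries sharing a pool number in the comparisons of cell type and tissue had residual correlations of −0.0536 to 0.0559, none over 0.1. They matched their own pool best in 4 of 15, 3 of 12, 4 of 9 and 2 of 10 pairs. These pairs are those for cell type in the hypothalamus and rest brain, then for tissue in activated T cells and Tregs. Rps25, a protein of the small subunit's head, had 609, 653 and 820 CPM in activated T cells and 340, 488 and 768 CPM in Tregs of C57Bl/6J. In Balb/c it had 1117, 1447 and 1896 against 319, 413 and 501 CPM, so that the Balb/c libraries were apart and the C57Bl/6J ones overlapped, and its log2 fold change over both strains was −1.16 ± 0.22 (SE; adjusted p = 0.000729, edgeR quasi-likelihood test, Benjamini-Hochberg). Among other genes the median was −0.71 under 600 bases and −0.23 from 1000 to 2000 bases, beside −0.72 and −0.49 for members. The member that was higher was Rpl3, at 0.49 ± 0.10 (SE; adjusted p = 0.00163, edgeR quasi-likelihood test, Benjamini-Hochberg).

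Within strains this comparison came apart. Among C57Bl/6J libraries 1 member was higher in Tregs and 0 lower (1.06% and 2.52% of all genes), with a median of 0.00, while among Balb/c libraries 0 were higher and 73 lower (7.15% and 11.4% of all genes), with a median of −1.39. CD8 genes, other markers and the number of genes detected differed in this comparison too. Genes with more than 3 counts numbered 8790 to 10281 in Balb/c Tregs against 11612 to 14195 in activated T cells. In C57Bl/6J they numbered 5960 to 9956 against 10869 to 13570. B-cell markers had medians of 73.8 against 8.98 CPM in Balb/c and 387 against 11.7 CPM in C57Bl/6J. Those of oligodendrocytes had medians of 536 against 184 and 326 against 356 CPM. The CD8 genes lay at 0.112 to 58.8 CPM in Balb/c Tregs against 276 to 479 CPM, and the macrophage and monocyte markers at 37.4 to 529 against 420 to 636 CPM. In C57Bl/6J, where 0 members were lower, the macrophage and monocyte markers were further apart, at 0.207 to 259 against 930 to 1583 CPM, and the CD8 genes overlapped, at 0.0598 to 78.5 against 1.94 to 736 CPM. The part of these markers and of the number of genes detected was not tested. Library totals moved the median of all genes in Balb/c from −0.12 to 0.18 and the split of all calls from 927 higher and 1477 lower to 1273 and 1128, and left 70 members lower. The test of the difference itself, an interaction of strain and cell type, gave 0 members above and 69 below 0 (1.65% and 3.14% of all genes), with medians of −1.45 and 0.23. By library totals it gave 60 members below 0, a median of all genes of 0.52, and calls of 300 above and 259 below in place of 231 and 439. Rps27a, made as a fusion with ubiquitin, had the largest value at −2.07 ± 0.31 (SE; adjusted p = 0.000576, edgeR quasi-likelihood test, Benjamini-Hochberg). Other genes in this interaction had a median of −1.32 under 600 bases and −0.06 from 1000 to 2000 bases, beside −1.55 and −1.17 for members.

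In the hypothalamus, 0 members were past the threshold between Tregs and activated T cells (edgeR quasi-likelihood test). At unadjusted p < 0.05 there was 1 member, of 2534 among all 11285 genes. DESeq2 called 0 members, where it called 132 of all genes higher and 2527 lower. With limma-voom 2 members were lower, where it called 60 of all genes higher and 7407 lower. There, 0.549% of all genes were higher and 13.3% lower, with a median of 0.03 for members and −0.96 for all genes. Under the stricter detection filter, 21 of 8024 genes were higher and 173 lower, 0 of them members, and the medians were 0.08 and −0.54. Genes with more than 3 counts numbered 2370, 4761 and 10476 (lowest, median, highest) in Tregs and 9387, 9926 and 10499 in activated T cells. The part of this was not tested. Leaving out pool BalbC_SD 42_46 gave 1 member and leaving out BL6_HFD 06_10 gave 3, and calls over all genes in those fits are not given here. The fit without the 2 libraries that go against their labels gave 0 members (64 of all 11524 genes higher and 2123 lower). Blocking by pool gave 0 members higher and 1 lower (44 and 5499 of all 11285 genes).

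Hypothalamus and rest brain were then compared. In activated T cells, 1 member was higher in the hypothalamus and 45 were lower, where 5.61% of all genes were higher and 11.8% lower, and the members' median was −0.44 beside −0.11. The lower ones were 23 large-subunit and 22 small-subunit members, led again by Rps25 at −0.88 ± 0.14 (SE; adjusted p = 0.000121, edgeR quasi-likelihood test, Benjamini-Hochberg). Its hypothalamic levels were 396, 567 and 640 CPM in C57Bl/6J and 547, 606 and 746 CPM in Balb/c, so that the Balb/c rest brain, at 1117 CPM or more, lay above both. Rpl3 was the member that was higher, at 0.50 ± 0.09 (SE; adjusted p = 0.000294, edgeR quasi-likelihood test, Benjamini-Hochberg). The count hung on single Balb/c pools: it was 22 without BalbC_HFD 15_21, 24 without BalbC_SD 37_41, 28 without BalbC_HFD 16_20, 30 without BalbC_HFD 26_31 and 30 without BalbC_SD 32_36. Calls over all genes in those fits are not given here. The count was 36 with library totals (881 of all 12837 genes higher and 1304 lower), 56 with DESeq2 (1007 and 1545) and 70 with limma-voom (714 and 2317). With pools as a block it was 1 (49 and 66), though labels do not say that a pool number marks the same mice.

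The same split by strain appeared here. In C57Bl/6J, 0 members were past the threshold (edgeR quasi-likelihood test), where 0% of all genes were higher and 0.00870% lower, with a median of 0.08. At unadjusted p < 0.05 there were 3 members, of 688 among all 11489 genes. DESeq2 called 1 member higher, where it called 24 of all genes higher and 76 lower. In Balb/c, 1 member was higher and 74 were lower (10.4% and 15.1% of all genes), with a median of −1.04. Neuronal markers in Balb/c summed to 0.168, 1.54 and 8.89 CPM in the hypothalamus, against 8.28, 52.6 and 642 CPM in the rest brain. Genes with more than 3 counts numbered 9552 to 10499 against 11612 to 14195 in the rest brain. In C57Bl/6J, where 0 members passed, these numbers were apart as well, 9387 to 10297 against 10869 to 13570, and neuronal markers summed to 0, 0.130 and 13 against 0.603, 3.48 and 35.8 CPM. The part of either was not tested. By library totals the Balb/c fit gave 1 higher and 70 lower, a median of all genes of 0.23 in place of −0.06, and calls of 1845 higher and 1281 lower in place of 1225 and 1788. The interaction of strain and tissue gave 0 members above and 72 below 0 (4.84% and 5.58% of all genes), with medians of −1.04 and 0.08. By library totals it gave 67 below, a median of all genes of 0.32, and calls of 924 above and 483 below in place of 621 and 716. Of the members past the threshold, Rpl39 had the largest value, −1.31 ± 0.30 (SE; adjusted p = 0.00457, edgeR quasi-likelihood test, Benjamini-Hochberg). Both interactions and the strain comparison share the Balb/c rest-brain activated libraries. Length went with the tissue comparison too: other genes under 600 bases had a median of −0.53 and those from 1000 to 2000 bases −0.09, beside −0.49 and −0.29 for members. In the interaction of strain and tissue these medians were −1.09 and −0.02 for other genes, and −1.15 and −0.94 for members.

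Tregs of the hypothalamus and the rest brain had 0 members past the threshold in edgeR, where 0.0873% of all genes were higher in the hypothalamus and 5.51% lower. At unadjusted p < 0.05 there was 1 member, of 2140 among all 12607 genes. DESeq2 called 1 member higher, Rps24, where it called 97 of all 12607 genes higher and 1752 lower. In edgeR, 1 was higher without pool BL6_SD 11_15 and also without the 2 libraries that go against their labels, where 10 of 12146 genes were higher and 1211 lower. The members' median was 0.27 beside −0.88 for all genes. Genes with more than 3 counts numbered 2370, 4761 and 10476 (lowest, median, highest) in hypothalamic Tregs and 5960, 9138 and 10281 in rest-brain Tregs. In Balb/c these numbers were apart, at 2370 to 6872 against 8790 to 10281, and their part was not tested. Under the stricter detection filter, 0 of 6470 genes were called in either direction, and the medians were 0.28 and −0.41.

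The interaction of cell type and tissue asked whether Tregs and activated T cells differ more in one place. It gave 14 members above 0 and 0 below, 5 of the large and 9 of the small subunit, where 5.84% of all genes were above and 3.66% below, with medians of 0.77 and −0.17. Other genes under 600 bases had a median of 0.91 and those from 1000 to 2000 bases −0.13, beside 0.90 and 0.41 for members, so that the shortest members did not stand apart from other short genes. Rps12, a small-subunit head protein, had the largest value at 1.54 ± 0.46 (SE; adjusted p = 0.0191, edgeR quasi-likelihood test, Benjamini-Hochberg), and its libraries in hypothalamic Tregs ran from 102 to 801 CPM in C57Bl/6J. With DESeq2, 19 members were above and 1 below, and with DESeq2 size factors in edgeR 11 were above and 1 below, with medians of 0.49 for members and −0.36 for all genes. The all-gene calls, 863 above and 540 below in edgeR, were 472 and 1035 in DESeq2. The count was 2 without pool BalbC_HFD 47_25, 8 without any 1 of BalbC_HFD 15_21, BalbC_HFD 16_20, BalbC_SD 37_41 and BL6_HFD 06_10, and 28 without BL6_SD 11_15. Calls over all genes in those fits are not given here. Without the 2 libraries that go against their labels, the count was 10 above and 1 below (3.07% and 6.34% of all genes). Under a stricter detection filter it was 6 above and 0 below (0.222% and 1.11% of all genes). With both changes it was 14 above and 0 below (48 and 260 of all 9051 genes). With pools as a block it was 0 above and 0 below (252 and 986 of all 14771 genes). The count thus moved with the tool, the filter and single pools.

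Diet was the study's own contrast. No diet comparison called a member, and 0% of all genes passed in either direction in each of the 4 (edgeR quasi-likelihood test, Benjamini-Hochberg). In Balb/c rest-brain activated T cells, the HFD libraries had ribosomal protein shares of 9.10, 9.32 and 10.1% and the SD libraries 7.08, 7.60 and 8.32%. These did not overlap, but in C57Bl/6J the HFD mean was lower, 4.81% ± 0.430 (SD, n = 3) against 5.57% ± 0.572 (SD, n = 4). Over both strains, 0 members had unadjusted p < 0.05 in edgeR, of 591 among all 12289 genes, and the members' median was 0.11 beside −0.03. DESeq2 called 0 members, where it called 3 of all genes higher and 9 lower. Whether diet acts differently by strain was not tested.

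In rest-brain Tregs, C57Bl/6J libraries had shares of 3.91, 3.99, 4.12 and 5.04% on HFD and 4.26, 5.52, 6.07 and 7.88% on SD. Balb/c libraries had 3.69 and 5.51% on SD and a mean of 3.91% ± 0.281 (SD, n = 4) on HFD. The ranges of shares overlapped in both strains. Genes with more than 3 counts numbered 8802 to 9956 on HFD and 5960 to 9080 on SD in C57Bl/6J. In Balb/c they numbered 9387 to 10281 and 8790 to 9196, and their part was not tested. Over both strains of these Tregs, 42 members, of 853 among all 11711 genes, had unadjusted p < 0.05 with a median of −0.43 beside 0.10. With limma-voom, 12 members had unadjusted p < 0.05, of 779 among all genes, with medians of −0.22 and 0.42. Of the members, 0 were called by edgeR. DESeq2 called 6 lower on HFD, where it called 260 of all 11711 genes higher and 67 lower. In the hypothalamus, both activated T cells and Tregs had 0 members at unadjusted p < 0.05 in edgeR. Of all genes, 406 of 10877 in activated T cells and 214 of 7715 in Tregs were at that level. DESeq2 called 0 members in both. Of all genes, it called 9 higher and 7 lower in activated T cells, and 119 and 61 in Tregs. In edgeR the members' medians were 0.11 beside −0.01 in activated T cells and 0.25 beside 0.20 in Tregs. DESeq2 size factors moved the latter to 0.02 beside 0.03. The fit of Tregs without the 2 libraries that go against their labels gave 0.18 beside 0.23.

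As 71 members were higher in 1 comparison, the starts of their genes were read from RefSeq promoters (build GRCm38.p6), which hold 60 of the 80. The pyrimidine pentamer CTTTC lay within 20 bases before to 30 bases after the start in 32.9% of the 70 member promoters, and in 6.57% of all 32851 promoters. On either strand the shares were 38.6% and 12.5%. This is a description of letters in a window and says nothing of a factor. The runs of 30 bases shown begin 10 bases before the start, with the pentamer in capitals. They belong to the members with large strain differences, Rps28 (chr17:33824543-33824572, minus strand), Rps27 (chr3:90213629-90213658, minus), Rpl36a (chrX:134585644-134585673, plus) and Rpl39 (chrX:37085203-37085232, minus). Those with small ones are Rps3 (chr7:99483690-99483719, minus) and Rplp0 (chr5:115559457-115559486, plus). In the bases shown, Rps27 held the pentamer at 2 places and Rps28 on the opposite strand, and the other 4 held none.
Rps28: cgcgtgcggtctcgcgagagcgaaagtgag
Rps27: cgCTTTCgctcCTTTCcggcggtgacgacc
Rpl36a: cccaggcaccgcctataaacttccgttgcg
Rpl39: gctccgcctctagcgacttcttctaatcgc
Rps3: aagggtcgccgcgctgcgcggcgtcattgc
Rplp0: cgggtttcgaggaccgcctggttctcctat

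The pilot libraries held 79 members among 24421 symbols and had 99925 to 5334511 counts on genes. Ribosomal protein genes took 1.02% of counts in HFHSD naive T cells (95% exact interval 1.01 to 1.03%) and 0.641% in those on regular diet (0.633 to 0.650%). In Tregs the order was the reverse, 0.480% on HFHSD (0.471 to 0.490%) and 0.738% on regular diet (0.723 to 0.753%). CD4+ T cells had 0.782% in ob/ob (0.769 to 0.795%) and 1.31% in BL6 mice (1.26 to 1.36%). CD25high Tregs had 1.24% in ob/ob (1.17 to 1.31%) and 0.0998% in the BL6 library that held microglial markers (0.0972 to 0.103%). All of these lay below the lowest share of the second experiment, 2.86%, which was quantified in another way.

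With 1 library per condition the pilot gives folds without a test. In naive T cells, 10 of 29 members with enough reads were more than 2-fold higher on HFHSD and 9 more than 2-fold lower, where 24.8% and 37% of all genes were. By CPM, 13 of 52 were higher and 19 lower (2013 and 4039 of all 9117 genes). The 7 T-cell markers summed to 17153 CPM on HFHSD and 7058 on regular diet, and the 8 oligodendrocyte markers to 194 and 608. The part of these differences was not tested. Rps14 was at 1206 counts on HFHSD and 622 on regular diet, a fold of 3.30 (95% exact interval 3.0 to 3.64), and Rpl15, a large-subunit protein, at 50 and 424, a fold of 0.201 (0.147 to 0.270). In Tregs, 7 of 33 were higher and 10 lower (48.2% and 32.3% of all genes). There Rpl5, which carries 5S rRNA, had 237 and 30 counts, a fold of 6.58 (4.49 to 9.96), and Rps20, a small-subunit head protein, 97 and 382, a fold of 0.211 (0.167 to 0.265). Members lay on both sides in both cell types, as did all genes. The Treg library on regular diet held 8 neuronal markers at 505 CPM led by Nefl at 302, and 8 astrocyte markers at 730 CPM led by Aqp4 at 587, against 0 and 34.0 CPM on HFHSD, and their part was not tested.

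In CD4+ T cells of ob/ob against BL6 mice, 4 of 34 members were higher and 19 lower (61.4% and 28.5% of all genes), with a median log2 fold of −1.03 beside 4.51. With size factors over the 2 libraries alone, 8 were higher and 7 lower and the median was −0.08. By CPM, 4 were higher and 19 lower of 34 (4143 and 1892 of all 6700 genes), with a median of −1.04. With enough reads in both libraries, 0 were higher and 11 lower of 22 (316 and 730 of all 1644 genes), with a median of −0.96. The lower-heavy split was thus lost with size factors over the 2 libraries alone and stood in the other settings. The BL6 library was shallow, with 220336 gene counts and 3034 genes over 3 counts against 1727379 and 9005 in ob/ob. It held astrocyte markers at 540 CPM, all from Slc1a2, against 23.7 CPM, and the part of depth and of other cells was not tested. Rpl8, a large-subunit protein, had 491 and 343 counts, a fold of 0.184 after scaling (0.160 to 0.211), and Rps9, a small-subunit protein, 700 and 55, a fold of 1.63 (1.24 to 2.19). In CD25high Tregs, 22 of 36 were higher and 7 lower (24.8% and 66.6% of all genes), with a median of 1.87 beside −5.07. Rpl32 had 147 and 168 counts there, a fold of 13.7 (10.9 to 17.2), and Rplp2 had 4 and 68, a fold of 0.919 (0.243 to 2.46). That comparison rests on the BL6 library with microglial markers and the shallow ob/ob library with astrocyte markers, and no other library can stand in for either.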

How the data were processed

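RNA sequencing of sorted T cells was read from the deposited files of 67 libraries. For the pilot, the deposited values are raw read counts per gene symbol, which the authors made with BWA and HTSeq on mm10; 82.9 to 99.6% of reads named no gene. For the second experiment, the deposited values are Salmon estimated counts and TPM per transcript name; of 35034 names, 98.9% were matched to a gene. The authors ran Salmon through version 3.16 of nf-core/rnaseq, and versions of BWA, HTSeq and Salmon were not stated. Estimated counts were summed per gene and rounded for tests, and the deposited TPM were used to compare levels between genes and for transcript length (mean over a gene's transcripts, weighted by TPM). Fragment length is the deposited length less the effective length, over long transcripts.

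CPM are counts scaled to a total of 1000000 over a library's genes, and mean log2 levels used a pseudocount of 1. Each comparison was fitted over all genes that passed edgeR's detection filter (count minimum of 10) with edgeR 4.0.16 quasi-likelihood tests and TMM scaling in R 4.3.3, with the other factors of the design as terms and Benjamini-Hochberg adjustment over all genes tested (threshold 0.05). Alternatives were DESeq2 1.42.0, limma 3.58.1 voom with sample quality weights, other scalings and filters, leaving out each library or pool, and blocking by pool. Pilot counts were scaled by median-of-ratios size factors over the 8 libraries; genes needed more than 20 scaled reads in at least 1 library and a fold past 2. Exact Clopper-Pearson intervals (95%) cover counting error only. Tables, figures and intervals were made with Python 3.11.15, numpy 2.4.6, pandas 2.3.3, scipy 1.17.1 and matplotlib 3.10.9.

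The code was tested on simulated data, where the main filter let through false calls among genes detected in few libraries, chiefly in interactions and in the cell-type fit of the hypothalamus; a stricter filter (more than 10 counts in over 50% of the libraries) was therefore added. Members and gene lists were chosen with earlier results of these data known. Named genes are the 5 most extreme called members in each direction and a fixed set of members of each role. Length classes, fits within a strain, strain interactions, the stricter filter, fits without libraries that go against their labels and the CTTTC motif were chosen after these data were seen. Rps19bp1 was set aside, since it is no ribosomal protein gene. Some genes are not reported here by name.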

Additional observations from a re-analysis of the deposited data

Results flagged for a closer look

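Among the 12 groups with 4 libraries, 24 checks for a library far from the other 3 (Dixon's test) were made on the share of ribosomal protein counts and on the mean log2(CPM + 1), and chance flags about 1 in 20 groups. Library brain_BalbC_HFD_Tregs_16_20 stood apart with a share of 4.33%. Library hypo_BL6_SD_Tregs_11_15 stood apart with a mean of 8.11, and hypo_BalbC_SD_Tregs_32_36 with a mean of 7.77. The latter libraries are those with endothelial or microglial markers.

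A difference between groups was found by a test of the difference itself in 3 interactions. All 3 hold the Balb/c rest-brain activated libraries and are not independent of each other. The effect of strain differed between tissues in activated T cells for 72 members (4.84% of all genes above and 5.58% below 0), and between cell types in the rest brain for 69 members (1.65% and 3.14%). The effect of cell type differed between tissues for 14 members, where 5.84% of all genes were above and 3.66% below 0. That count ran from 2 to 28 with 1 pool left out, was 6 under the stricter filter and was 0 with pools as a block. Calls over all genes with 1 pool left out are not given here.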

How the results depend on the processing

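Counts and named members were computed again in other ways. With 1 library or pool left out, named members kept their direction and side of the threshold in 1770 fits and lost their call in 108. They kept both in 110 DESeq2 fits, 110 limma-voom fits, 108 with DESeq2 size factors in edgeR, 103 with library totals, 111 with more than 10 counts in total and 104 with the stricter filter, and lost the call in 1, 2, 3, 8, 1 and 8. Without the 2 libraries whose markers stand apart they kept both in 7 and lost the call in 4. Among Balb/c libraries alone they kept both in 31 and lost the call in 1, while among C57Bl/6J libraries alone they kept both in 1, lost the call in 18 and came to 0.00 or past 0, at most 0.10, in 13. Counts kept their side in the strain comparison of rest-brain activated T cells (70 to 75 members with 1 library left out), in the cell-type comparison of the rest brain (34 to 67 with 1 pool left out), and in the interactions of strain with tissue (67 to 75) and with cell type (63 to 71).

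With 1 left out, counts also moved for tissue in activated T cells (22 to 64) and Tregs (0 to 1). So did those for cell type in the hypothalamus (0 to 3) and the interaction of cell type and tissue (2 to 28). Strain in hypothalamic activated T cells gave 2 to 6. Calls over all genes in the fits with 1 library or pool left out are not given here. Whether all calls moved or held along with the members' counts can therefore not be read from these ranges.

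With DESeq2, 6 members passed for diet in rest-brain Tregs (260 of all 11711 genes higher and 67 lower), 4 for strain in hypothalamic activated T cells (248 and 296 of 10877), 4 for strain in rest-brain Tregs (168 and 132 of 11711) and 1 for tissue in Tregs (97 and 1752 of 12607). With limma-voom, 4 passed for strain in hypothalamic activated T cells (148 of all 10877 genes higher and 154 lower), 2 for cell type in the hypothalamus (60 and 7407 of 11285) and 70 for tissue in activated T cells (714 and 2317 of 12837). It also gave 1 for tissue in Tregs (8 and 4279 of 12607) and 39 for the interaction of cell type and tissue (1119 and 4786 of 14771). In each of these comparisons limma-voom called more of all genes than edgeR did. Among C57Bl/6J libraries alone, 1 passed for cell type in the rest brain and 0 for tissue in activated T cells. Among Balb/c libraries alone, 75 passed for tissue in activated T cells. Without the 2 libraries whose markers stand apart, 1 passed for tissue in Tregs. Under the filter on over 50% of libraries, 6 passed for the interaction of cell type and tissue.

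Pool numbers may mark the same mice across cell types and tissues, which the labels do not say. With pools as a block, 1 member passed for cell type in the hypothalamus, 21 for cell type in the rest brain, 1 for tissue in activated T cells and 0 for the interaction of cell type and tissue. Named members kept their call in 11 such fits and lost it in 32. Libraries of a pool had residual correlations of −0.0536 to 0.0559 and matched their own pool best in 4 of 15, 3 of 12, 4 of 9 and 2 of 10 pairs, and no correlation was over 0.1.

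Rplp0 in the strain comparison of rest-brain activated T cells, at −0.04 in the main fit, had 0.00 with DESeq2 and 0.00 with its size factors in edgeR, where the median of all genes moved from −0.03 to 0.01. With library totals Rplp0 passed as lower at −0.31. Among C57Bl/6J libraries alone, the fold change for cell type in the rest brain came to 0.00 in Rpl10 and reversed in Rpl38 (0.03) and Rps19 (0.04). It also reversed for tissue in activated T cells in Rplp2 (0.04), Rpl5 (0.02), Rpl11 (0.10), Rpl22 (0.04), Rpl38 (0.01), Rpl39 (0.04), Rpl41 (0.09), Rps14 (0.03), Rps18 (0.03) and Rps19 (0.01). The cause was not tested.

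In the pilot, the diet comparison of naive T cells had 32 of 52 members past the fold by CPM, 35 of 51 with size factors over the 2 libraries and 11 of 19 with enough reads in both, beside 19 of 29. Of all genes, 2013 were higher and 4039 lower of 9117 by CPM, 2439 and 3579 of 9002 with those size factors, and 808 and 701 of 3843 with enough reads in both, beside 1661 and 2475 of 6686. The larger counts thus came with more members tested. With enough reads in both, the diet comparison of Tregs had 1 higher and 5 lower of 21 (502 and 474 of all 1978 genes), beside 7 and 10 of 33. The ob/ob comparison of CD25high Tregs had 11 and 0 of 17 (384 and 515 of all 1391 genes), beside 22 and 7 of 36. The ob/ob comparison of CD4+ T cells had 8 higher and 7 lower of 31 with size factors over the 2 libraries (4193 and 1287 of all 6178 genes). It had 0 and 11 of 22 with enough reads in both (316 and 730 of 1644), beside 4 and 19 of 34.

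As a share of TPM in place of counts, the members took 13.4% in C57Bl/6J and 18.0% in Balb/c rest-brain activated T cells, 13.5% and 13.3% in hypothalamic ones, 13.1% and 11.4% in rest-brain Tregs, and 13.8% and 12.8% in hypothalamic Tregs.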
